A study of Mus musculus with 28 samples.

Results

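Liver of mice 3 days after carbon tetrachloride (CCl4), measured on 2 arrays, was compared with undamaged liver on 4 arrays. The undamaged arrays form 2 sets of 2: a set labelled as liver of wildtype mice, called adult liver here, and a set labelled as whole liver tissue, called whole liver. A gene was called against a set when its log2 change was at least 1 in size and its adjusted p was under 0.05, and it was kept when it was called in the same direction against each set on its own. Of 21032 genes tested, 771 were kept, 574 higher and 197 lower at day 3.

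The 6 arrays belong to a series of 28 arrays in 13 groups. Livers taken 13 days after CCl4 (2 arrays) are given beside them where they help. On each array, total RNA of a sample was labelled with Cy3 and hybridised with a commercial mouse reference RNA labelled with Cy5. A level is the log2 ratio of Cy3 to Cy5 of a gene's probe, and a change is a difference between mean levels. The mice of all 8 arrays were C57BL/6. The labels give CCl4 as the agent and 3 or 13 days as the length of treatment, without saying whether it was a single dose. They give no dose, route, vehicle, age or sex, so whether the undamaged livers received vehicle is not known here. Each group's arrays are labelled as biological replicates. Separate animals are not shown by the files, so p-values measure the spread between arrays, which may be technical.

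CCl4 is turned into reactive products by cytochrome P450 enzymes in the hepatocytes around the central vein, and those cells die. In the repair that follows, surviving hepatocytes divide, stellate cells become matrix-producing myofibroblasts, and macrophages from blood monocytes enter and clear debris. Hepatocytes near the central vein normally make glutamine and carry most drug-metabolising P450 enzymes, while those near the portal vein carry the urea cycle.

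At day 3 the arrays were alike, with a correlation of 0.989 over genes, against 0.969 for the adult pair and 0.931 for the whole liver pair. The day 3 pair shared a slide and scan day, while each undamaged pair was split over slides and scan days. The day 13 pair, on the slide of day 3, correlated by 0.985. Probes well above background made up 61.5 and 62.7% on the day 3 arrays, 46.8 and 60.9% in adult liver and 44.7 and 35.5% in whole liver. The hepatocyte genes Alb, Cps1 and Hnf4a were above background on all 6 arrays. Of all arrays, those of day 3 shared a slide and a scan day with those of day 13 alone, and the undamaged livers lay on 4 other slides, so slide and damage cannot be told apart. Sex genes divided the undamaged livers. The Y-linked gene Ddx3y stood at 2.27 and 2.02 at day 3, at 1.72 and 2.15 in adult liver and 2.35 and -0.69 in whole liver, and at -1.86 and -1.71 at day 13. Xist, expressed from the inactive X chromosome, was above background on the whole liver arrays (-1.84 and 2.53) and on neither the day 3 nor the adult liver arrays. Whole liver replicate 2 therefore stood apart from the others, as did both day 13 arrays. Without that array, 578 of the 771 genes were still kept and 739 had the same sign against both sets. Kept genes with no value on whole liver replicate 1, such as Mki67 and Cenpe, then have no whole liver value. They count as neither kept nor of the same sign, so these counts do not measure losses or reversals alone.

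Against adult liver 1119 genes (5.32%) were higher and 724 (3.44%) lower at day 3. Against whole liver 1347 (6.4%) were higher and 557 (2.65%) lower. The genes kept against both were 2.73% of those tested among the higher and 0.937% among the lower. On the log scale used, the median change of all genes was 0.009 against adult liver and 0.014 against whole liver. Of the kept genes, 736 had day 3 levels that did not overlap the 4 undamaged levels, as did 7466 of all genes tested. Of the kept genes 74.4% were higher, a share that became 62.3% with quantile scaling between arrays and 59.7% with Cy3 alone, a scaling that moved the median of all genes by -0.669 against whole liver. Without day 3 replicate 1 the genes kept lower numbered 115, those lower than adult liver 449, those higher than whole liver 835 and those lower than whole liver 286. Without day 3 replicate 2 the last count was 321.

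**Figure D1:**
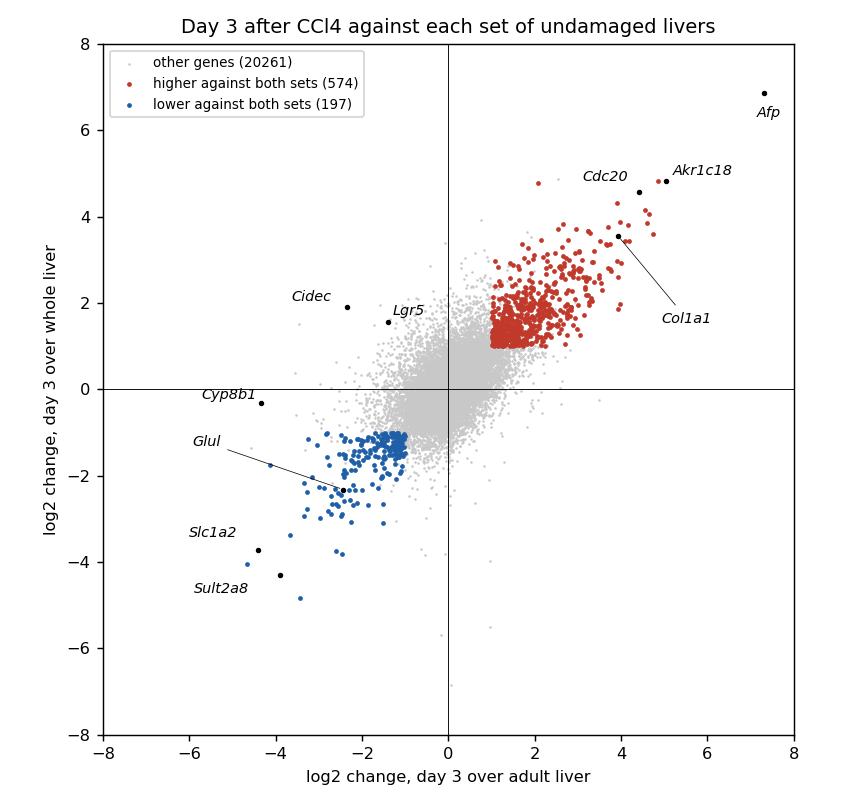
Log2 change of each of 21032 genes at day 3 over adult liver (x axis) and over whole liver (y axis), 1 point per gene. Genes kept as higher (574, red) lie in the upper right with Afp farthest out at 7.30 and 6.87, genes kept as lower (197, blue) in the lower left with Slc1a2 at -4.41 and -3.71, and Lgr5, Cidec and Cyp8b1 lie off the diagonal.

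The largest rise among the genes ranked (kept, with a RefSeq symbol, no array overlap and signal at day 3) was that of Afp. Afp, alpha-fetoprotein, is the main serum protein of the fetal liver and is nearly silent in adult liver. Its probe (chromosome 5, 90937781 to 90937840 of mm9, the build of the files) stood at 5.59 and 4.61 on the day 3 arrays and at -2.62 and -1.78 in adult liver and -1.61 and -1.93 in whole liver, where 1 of the 2 whole liver arrays was above background. Both day 3 arrays lay far above every undamaged array. The change was 7.30 ± 0.99 against adult liver (adjusted p = 3.4e-05) and 6.87 ± 0.99 against whole liver (adjusted p = 9.3e-05), where ± is the standard error (SE) of the limma fit and p is adjusted by Benjamini-Hochberg over all genes. At day 13 the levels were -2.25 and -2.31, within the undamaged range.

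Afp was 1 of 3 genes of fetal liver or liver tumours kept as higher among 14 tested, with none lower. Over all genes 2.73% were kept as higher and 0.937% as lower. The median change of these 14 against the average of both sets was 0.32, against 0.005 over all genes. Scd2, a fatty acid desaturase, rose from -5.93 and -6.01 in adult liver and -5.47 and -5.10 in whole liver to -2.29 and -3.26 at day 3. Tff3, a trefoil peptide of mucous epithelia, stood at 3.52 and 2.25 at day 3 and was above background on 1 of 2 adult liver arrays and neither whole liver array. It changed by 2.41 ± 0.29 against whole liver (adjusted p = 1.1e-05) and 2.25 ± 0.29 against adult liver (adjusted p = 1.5e-05). The call was lost with Agilent's log ratio and with Cy3 alone, where the change against the average of both sets was 1.47. Where a gene was above background on no array of a group, here and below, measured means are compared. Such sizes are uncertain because the lower levels lie near background, and without dye swaps they are open to dye bias. Other genes of this kind were not kept: the fetal growth factor Igf2 stood at -2.02 and -1.90 at day 3 and at -1.98 and -1.87 in adult liver and -1.20 and -1.31 in whole liver, so its day 3 levels lay below whole liver and next to adult liver. The imprinted RNA H19 changed by 0.89 against adult liver and -0.08 against whole liver.

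**Figure D2:**
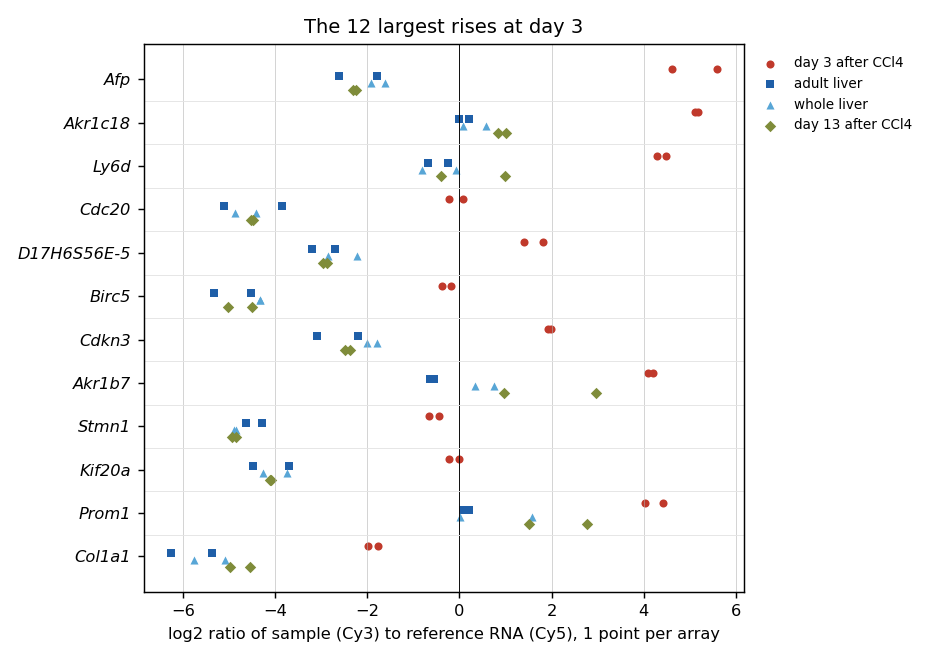
Log2 ratio of sample to reference RNA (x axis) for the 12 genes with the largest rises, 1 point per array, for day 3 (red circles), adult liver (dark blue squares), whole liver (light blue triangles) and day 13 (green diamonds). The genes were chosen without overlap, so the red points lie to the right of all undamaged points by choice, by the widest gap for Afp. The day 13 points lie near the undamaged ones for Cdc20, Birc5, Stmn1 and Kif20a and between the groups for Prom1 and Akr1b7.

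Many genes of mitosis rose. Of 38 tested, 25 were kept as higher and none as lower, against 2.73% and 0.937% of all genes. The median change of the list was 2.05. Against adult liver alone 31 were higher, and against whole liver 25, beside 5.32 and 6.4% of all genes. The count was 22 without day 3 replicate 1. It was 21 without whole liver replicate 2, where Cenpe and Mki67 have no whole liver value and so cannot be kept. The list's mean level was between -0.88 and -0.63 on the day 3 arrays, -3.38 and -3.15 in adult liver and -2.43 and -2.27 in whole liver, and returned to between -3.20 and -3.15 at day 13. Bulk RNA cannot tell a higher share of dividing cells from more RNA per cell, here or in any list below.

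Cdc20, the activator of the anaphase-promoting complex, had the largest change of the list. Its levels at chromosome 4, 118105536 to 118105595 were 0.09 and -0.23 at day 3 and -5.12 and -3.85 in adult liver and -4.41 and -4.88 in whole liver. All 4 undamaged arrays lay below day 3 with more than 3 units between them. It rose by 4.41 ± 0.34 against adult liver (adjusted p = 3.7e-08) and 4.57 ± 0.34 against whole liver (adjusted p = 5.2e-08). At day 13 Cdc20 was at -4.49 and -4.52, and day 3 exceeded day 13 by 4.43 ± 0.34 (adjusted p = 4e-08).

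Birc5, survivin, a subunit of the chromosomal passenger complex, stood at -0.18 and -0.37 at day 3 and -5.32 and -4.53 in adult liver and -4.34 and -4.33 in whole liver. Kif20a, a kinesin of cytokinesis, stood at -0.003 and -0.23 at day 3 and -4.47 and -3.69 in adult liver and -4.26 and -3.74 in whole liver. Neither gene's groups overlapped, a condition of their ranking. Birc5 rose by 4.65 ± 0.35 and 4.06 ± 0.35 against adult and whole liver, and Kif20a by 3.97 ± 0.27 and 3.88 ± 0.27, with adjusted p of at most 3.2e-07. Cenpe, a kinetochore motor, and Mki67, the source of the Ki-67 proliferation antigen, each lacked a value on whole liver replicate 1, where an outlier spot was removed. Cenpe rose by 4.17 ± 0.32 against adult liver (adjusted p = 7.9e-08) and 3.82 ± 0.40 against whole liver (adjusted p = 3.7e-06), a call lost when all probes of the gene were averaged. Mki67 stood at -0.94 and -1.12 at day 3, at -5.37 and -5.06 in adult liver and at -4.46 on whole liver replicate 2, and its change was 4.19 ± 0.30 against adult liver (adjusted p = 5.7e-08) and 3.44 ± 0.37 against whole liver (adjusted p = 8e-06). Against whole liver both genes thus rest on 1 array, which is assumed to vary like those of the other groups.

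Ccnb1, cyclin B1, the partner of Cdk1 at entry into mitosis, stood at -0.23 and -0.48 at day 3. It was above background on 1 of 2 adult liver arrays and on neither whole liver array. Its measured means differed by 2.75 ± 0.22 from whole liver (adjusted p = 1.3e-07). Cdkn3, a phosphatase that acts on cyclin-dependent kinases, and Stmn1, stathmin, which destabilises microtubules, were also among the 12 largest rises. Cdkn3 changed by 4.60 ± 0.33 and 3.85 ± 0.33 against the 2 sets, and Stmn1 by 3.91 ± 0.34 and 4.33 ± 0.34. Of the 38 mitosis genes, 6 (Aurkb, Ttk, Kif11, Ndc80, Anln and Cdc25c) were above background on no undamaged array.

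The promoters of 4 kept mitosis genes with large changes and an entry in the table are printed because many genes of this list rose and such genes are known to share CCAAT boxes and cell cycle homology elements. Each runs from 250 bases before to 50 after the start of the gene in RefSeq (GRCm38.p6) and reads 5′ to 3′ on the gene's strand. Capitals mark CCAAT and TTTGAA, or their reverse complements.
Cdc20: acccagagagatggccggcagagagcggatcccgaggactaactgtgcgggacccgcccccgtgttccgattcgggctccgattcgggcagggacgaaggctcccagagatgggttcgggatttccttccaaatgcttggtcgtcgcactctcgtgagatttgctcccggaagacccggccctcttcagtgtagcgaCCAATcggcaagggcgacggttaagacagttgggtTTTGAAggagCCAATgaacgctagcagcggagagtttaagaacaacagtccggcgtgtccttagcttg
Birc5: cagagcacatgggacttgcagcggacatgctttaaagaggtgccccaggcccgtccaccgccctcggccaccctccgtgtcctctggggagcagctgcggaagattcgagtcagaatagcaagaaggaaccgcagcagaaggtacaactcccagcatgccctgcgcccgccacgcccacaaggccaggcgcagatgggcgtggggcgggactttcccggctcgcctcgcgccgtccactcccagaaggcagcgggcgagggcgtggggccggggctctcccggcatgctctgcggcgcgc
Cenpe: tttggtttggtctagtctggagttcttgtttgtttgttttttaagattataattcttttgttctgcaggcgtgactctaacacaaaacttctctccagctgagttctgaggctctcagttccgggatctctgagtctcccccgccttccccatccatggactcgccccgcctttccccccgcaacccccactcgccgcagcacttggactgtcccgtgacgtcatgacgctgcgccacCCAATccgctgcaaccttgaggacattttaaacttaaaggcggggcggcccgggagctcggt
Mki67: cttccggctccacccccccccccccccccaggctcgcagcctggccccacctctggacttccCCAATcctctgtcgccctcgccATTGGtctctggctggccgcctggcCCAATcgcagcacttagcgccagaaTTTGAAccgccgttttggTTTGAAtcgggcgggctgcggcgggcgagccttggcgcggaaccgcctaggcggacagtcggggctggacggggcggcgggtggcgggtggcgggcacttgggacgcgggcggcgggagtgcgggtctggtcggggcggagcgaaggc
They lie at chr4:118437294-118437593 (minus strand, Cdc20), chr11:117848987-117849286 (plus, Birc5), chr3:135212313-135212612 (plus, Cenpe) and chr7:135716330-135716629 (minus, Mki67).

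The Cdc20 promoter held 2 CCAAT and 1 TTTGAA, that of Mki67 held 3 and 2, that of Cenpe 1 and 0, and that of Birc5 neither. Over all 27025 promoters of the table, CCAAT on either strand was present in 37.9%, TTTGAA in 18.1% and both in 7.12%. Of the 21 kept mitosis genes with an entry, 16 held CCAAT, 14 TTTGAA and 14 both. Over the 32 mitosis genes with an entry, kept or not, the counts were 24, 24 and 21. The motifs describe the letters of these windows. No binding was measured.

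Many genes of DNA replication also rose. Of 33 tested, 24 were kept as higher and 1 as lower, against 2.73% and 0.937% of all genes. The median change was 1.64. Mcm6, a subunit of the replicative helicase, stood at -0.83 and -0.38 at day 3 and at -4.72 and -3.52 in adult liver and -4.07 and -4.01 in whole liver, with no overlap between day 3 and undamaged arrays. Its change was 3.52 ± 0.29 against adult liver (adjusted p = 2.5e-07) and 3.43 ± 0.29 against whole liver (adjusted p = 6.6e-07). Uhrf1, which brings the DNA methyltransferase Dnmt1 to replicated DNA, rose by 3.74 ± 0.27 and 2.80 ± 0.27 against adult and whole liver. Prim1, a primase subunit, rose by 3.18 ± 0.34 and 2.18 ± 0.34, and Ccne1, cyclin E1, by 2.71 ± 0.21 and 2.55 ± 0.21.

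The exception was Mcm10, a replication initiation factor, which was lower. It stood at 1.05 and 1.12 at day 3 and at 2.83 and 3.06 in adult liver and 2.58 and 2.71 in whole liver, a fall of 1.86 and 1.56 on the log2 scale (adjusted p = 4.1e-06 and 4.4e-05). The day 13 arrays were at 2.10 and 2.13, between day 3 and undamaged liver. Elsewhere in the series this probe stood at 2.845 and 2.827 in isolated hepatocytes and at -0.17 and 0.11 in liver organoids in expansion medium. Mcm6 went the other way, at -0.30 and -0.51 in those organoids and far lower in undamaged liver. Whether the Mcm10 probe reads only Mcm10 was not tested.

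Of 14 genes of the G1 phase and of p53, 2 were kept, both higher, against 2.73% of all genes kept as higher. Ccnd1, cyclin D1, which drives cells out of G1, stood at 1.62 and 1.77 at day 3 and at -2.17 and -1.51 in adult liver and -1.93 and 0.40 in whole liver. The day 3 arrays were above all others although whole liver replicate 2 lay well above its partner. Its change was 3.54 ± 0.45 against adult liver (adjusted p = 1.5e-05) and 2.46 ± 0.45 against whole liver (adjusted p = 0.00087), and the call was lost when the 3 groups were fitted alone. Cdkn1a, the p21 inhibitor of cyclin-dependent kinases and a p53 target, stood at 0.11 and 0.09 at day 3 and at -2.83 and -2.39 in adult liver and -2.29 and -1.39 in whole liver. It rose by 2.71 ± 0.38 and 1.94 ± 0.38, so an inhibitor of the cycle was higher in the same livers as its drivers.

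Several collagens rose. Col1a1, which encodes a chain of type I collagen, the main fibre of scar, was measured at chromosome 11, 94813075 to 94813134. It stood at -1.97 and -1.77 at day 3 and at -6.26 and -5.36 in adult liver and -5.08 and -5.77 in whole liver. Every undamaged array lay more than 3 units below day 3, and the change was 3.94 ± 0.35 against adult liver (adjusted p = 2.2e-07) and 3.55 ± 0.35 against whole liver (adjusted p = 1.2e-06). With all probes of the gene averaged, its change against the average of both sets was 1.64 in place of 3.74. At day 13 Col1a1 was at -4.54 and -4.97, slightly above the undamaged arrays and below day 3 by 2.88 ± 0.35 (adjusted p = 1.2e-05).

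Of 16 collagen genes tested, 7 were kept as higher and none as lower, against 2.73% and 0.937% of all genes. Their median change was 1.29. Against adult liver alone 8 were higher and 1 lower. Col3a1, the chain of type III collagen, stood at -0.82 and -0.65 at day 3 and at -4.19 and -3.86 in adult liver and -4.32 and -4.39 in whole liver. Col4a1, of the basement membrane, stood at 1.16 and 1.1 and at -1.62 and -1.92 in adult liver and -1.58 and -1.35 in whole liver. Neither gene's day 3 levels overlapped the undamaged ones. Col3a1 rose by 3.29 ± 0.39 and 3.62 ± 0.39 and Col4a1 by 2.90 ± 0.31 and 2.60 ± 0.31. With probes averaged, Col3a1 changed by 1.35 against the average of both sets, in place of 3.45. Col1a2, the second chain of type I collagen, rose by 3.00 ± 0.42 and 2.57 ± 0.42, a call lost when all its probes were averaged.

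Of 35 other genes of matrix and stellate cells, 12 were kept as higher and none as lower, against 2.73% and 0.937% of all genes. Their median was 1.25. Lum, the proteoglycan lumican, stood at 4.43 and 4.58 at day 3 and 0.67 and 1.85 in adult liver and 2.89 and 1.77 in whole liver. Tagln, an actin-binding protein of smooth muscle and myofibroblasts, stood at -0.44 and 0.07 and -2.94 and -1.98 in adult liver and -3.35 and -2.96 in whole liver. Both were higher on the day 3 arrays than on any undamaged array. Tagln rose by 2.28 ± 0.33 and 2.97 ± 0.33, and Lum by 3.25 ± 0.59 and 2.18 ± 0.59, but the call of Lum was lost with Agilent's log ratio, without either day 3 array or without whole liver replicate 2. Anxa2, annexin A2, rose by 2.87 ± 0.20 and 2.29 ± 0.20.

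Acta2, smooth muscle actin, the usual marker of activated stellate cells, stood at -1.36 and -1.13 at day 3 and at -2.90 and -2.87 in adult liver and -2.39 and -3.02 in whole liver. All undamaged arrays lay lower, and the change was 1.64 ± 0.34 against adult liver (adjusted p = 0.0021) and 1.47 ± 0.34 against whole liver (adjusted p = 0.0055), a call lost without day 3 replicate 2, without whole liver replicate 2 or with probes averaged. Timp1, an inhibitor of matrix metalloproteinases, was called against adult liver only (1.72 ± 0.47, adjusted p = 0.017, against 1.22 ± 0.47 and 0.087 for whole liver). The list's mean level was between -0.69 and -0.57 at day 3, -2.15 and -1.81 in adult liver and -1.66 and -1.66 in whole liver. Thbs1 and Mmp12 of this list were above background on no undamaged array.

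Among genes of macrophages, 5 of 21 were kept as higher and none as lower, against 2.73% and 0.937% of all genes. Their median was 0.79. Trem2, a lipid-sensing receptor of macrophages that engulf debris, stood at -0.25 and 0.17 at day 3 and -3.46 and -2.62 in adult liver and -2.92 and -2.76 in whole liver. Its day 3 arrays lay more than 2 units above all undamaged arrays, and the change was 2.99 ± 0.49 against adult liver (adjusted p = 0.00028) and 2.80 ± 0.49 against whole liver (adjusted p = 0.00062). Ccr2, the chemokine receptor that brings monocytes into tissue, stood at 3.14 and 3.33 at day 3 and was above background on 1 adult liver array and on neither whole liver array. It changed by 3.05 ± 0.35 against whole liver (adjusted p = 8.2e-06) and 2.72 ± 0.35 against adult liver (adjusted p = 1.9e-05). Its call was lost with Cy3 alone, where the change against the average of both sets was 1.46, and that change was 6.49 with Agilent's log ratio.

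Cd9, a membrane tetraspanin, rose by 1.92 ± 0.29 and 2.15 ± 0.29. Lyz2, lysozyme of myeloid cells, rose by 1.72 ± 0.45 and 1.88 ± 0.45, a call lost without day 3 replicate 2, adult liver replicate 1 or whole liver replicate 1. Lgals3, galectin 3, was the fifth and lacked a value on whole liver replicate 1, so that against whole liver it rests on 1 array. Without day 3 replicate 2 the list's count was 3. Its mean level was between 0.56 and 0.74 at day 3, -0.66 and 0.06 in adult liver and -0.51 and -0.09 in whole liver, and of its markers only Itgam was above background on no undamaged array.

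Of 10 genes of Kupffer cells, the resident macrophages of the liver, 0 were kept by limma, and 0 had an unadjusted p under 0.05 in the same direction against both sets. Over all 21032 genes the unadjusted measure gave 1738 higher and 893 lower. Clec4f, the defining lectin of Kupffer cells, stood at 5.69 and 5.65 at day 3 and at 5.68 and 5.69 in adult liver and 4.26 and 5.75 in whole liver, with the day 3 arrays among the undamaged ones. Adgre1, the F4/80 antigen shared by many macrophages, stood at 0.86 and 1.18 at day 3 and at -0.27 and 0.70 in adult liver and 0.19 and 0.41 in whole liver, above all undamaged arrays but not called (adjusted p = 0.43 and 0.47).

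Of 12 neutrophil genes 1 was kept as higher, against 2.73% of all genes, so the count is near the background. It was Lcn2, which injured hepatocytes also make, and 6 were above background on no undamaged array, of which Elane, Ngp and Camp were also not above background at day 3. Lcn2, a siderophore-binding lipocalin, stood at 3.64 and 3.59 at day 3 and at -0.67 and 0.48 in adult liver and -0.28 and -0.02 in whole liver, above background on 1 of the 4. Its measured means differed by 3.76 ± 0.35 from whole liver (adjusted p = 9.9e-07), where it was above background on neither array, and by 3.71 ± 0.35 against adult liver (adjusted p = 6.3e-07). Lcn2 was also the single kept gene among 24 of the acute phase response, again near the background. In that list Saa1, serum amyloid A, stood at 3.33 and 2.45 at day 3 and at 2.19 and 3.53 in adult liver and 2.75 and 3.60 in whole liver. Of 14 lymphocyte genes limma kept 0, which says little beside a background of 2.73% higher and 0.937% lower. At an unadjusted p under 0.05 against both sets in the same direction the count was also 0. Over all 21032 genes that measure gave 1738 higher and 893 lower.

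Of 16 endothelial genes tested, 7 were higher than whole liver, 1 was higher than adult liver, and that gene, Cd34, was the only member kept. Over all genes 6.4% were higher than whole liver, 5.32% higher than adult liver and 2.73% kept as higher. The list's mean level was between 3.04 and 3.06 at day 3, 2.56 and 2.95 in adult liver and 1.5 and 1.63 in whole liver. Cd34, a surface mucin of capillary endothelium and progenitors, changed by 1.81 ± 0.34 against adult liver (adjusted p = 0.00089) and 1.06 ± 0.34 against whole liver (adjusted p = 0.037). That call was lost without either day 3 array or either whole liver array. It was also lost in 5 further settings, among them slide and scan day as a random block. Wnt2, an endothelial Wnt ligand of the central vein region, stood at 4.20 and 4.51 at day 3 and at 3.37 and 4.66 in adult liver and 1.96 and 2.86 in whole liver and was not called.

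Of 20 bile duct genes, 3 were kept as higher and none as lower, against 2.73% and 0.937% of all genes. Prom1, the CD133 antigen of duct and progenitor cells, stood at 4.42 and 4.04 at day 3 and at 0.08 and 0.21 in adult liver and 0.003 and 1.59 in whole liver. All undamaged arrays lay below day 3, none of them above background except 1 whole liver array. Prom1 changed by 4.09 ± 0.46 against adult liver (adjusted p = 3.9e-06) and 3.44 ± 0.46 against whole liver (adjusted p = 4.1e-05). Its call was lost with Cy3 alone, where the change against the average of both sets was 2.03. At day 13 it was at 1.52 and 2.77, and day 3 was higher by 2.08 ± 0.46 (adjusted p = 0.0054).

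Spp1, osteopontin, which duct cells, macrophages and stellate cells can all make and which is also counted in the matrix list, rose by 2.48 ± 0.52 and 2.27 ± 0.52, a call lost with quantile scaling, without day 3 replicate 1 or whole liver replicate 2. Bicc1, an RNA-binding protein of tubules and ducts, rose by 1.44 ± 0.22 and 1.80 ± 0.22. The keratin Krt19 differed between its day 3 arrays (-3.07 and -1.06) and overlapped the undamaged arrays (-3.60 and -3.61 in adult liver and -2.57 and -2.45 in whole liver), and the adhesion protein Epcam was at -3.24 and -2.88 at day 3 and at -3.25 and -3.13 in adult liver and -2.11 and -2.16 in whole liver. Sox9, a transcription factor found in ducts, was above all undamaged arrays at day 3 (-0.11 and -0.12 against -0.61 and -1.11 in adult liver and -0.94 and -0.69 in whole liver) but was not called (adjusted p = 0.067 and 0.084). Cldn4, Cftr, Ggt1 and Ehf of this list were among those above background on none of the 6 arrays.

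Among the remaining large rises were enzymes of carbonyl and steroid reduction. Akr1c18, a 20-alpha-hydroxysteroid dehydrogenase, stood at 5.18 and 5.12 at day 3 and at 0.21 and -0.001 in adult liver and 0.57 and 0.09 in whole liver, above background on 1 whole liver array alone. Its measured means differed by 5.04 ± 0.55 from adult liver (adjusted p = 2.9e-06) and by 4.82 ± 0.55 from whole liver (adjusted p = 8e-06). Akr1b7, an aldose reductase-like enzyme, stood at 4.20 and 4.09 at day 3 and at -0.56 and -0.64 in adult liver and 0.76 and 0.34 in whole liver. All others lay below day 3, and the change was 4.75 ± 0.40 against adult liver (adjusted p = 1.2e-07) and 3.60 ± 0.40 against whole liver (adjusted p = 5.8e-06). Ly6d, a small surface protein of the Ly6 family, stood at 4.48 and 4.30 at day 3 and at -0.68 and -0.24 in adult liver and -0.81 and -0.07 in whole liver, and rose by 4.85 ± 0.52 and 4.83 ± 0.52. D17H6S56E-5 changed by 4.57 ± 0.26 and 4.15 ± 0.26. The probes of related family members were not tested for cross-hybridisation.

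**Figure D3:**
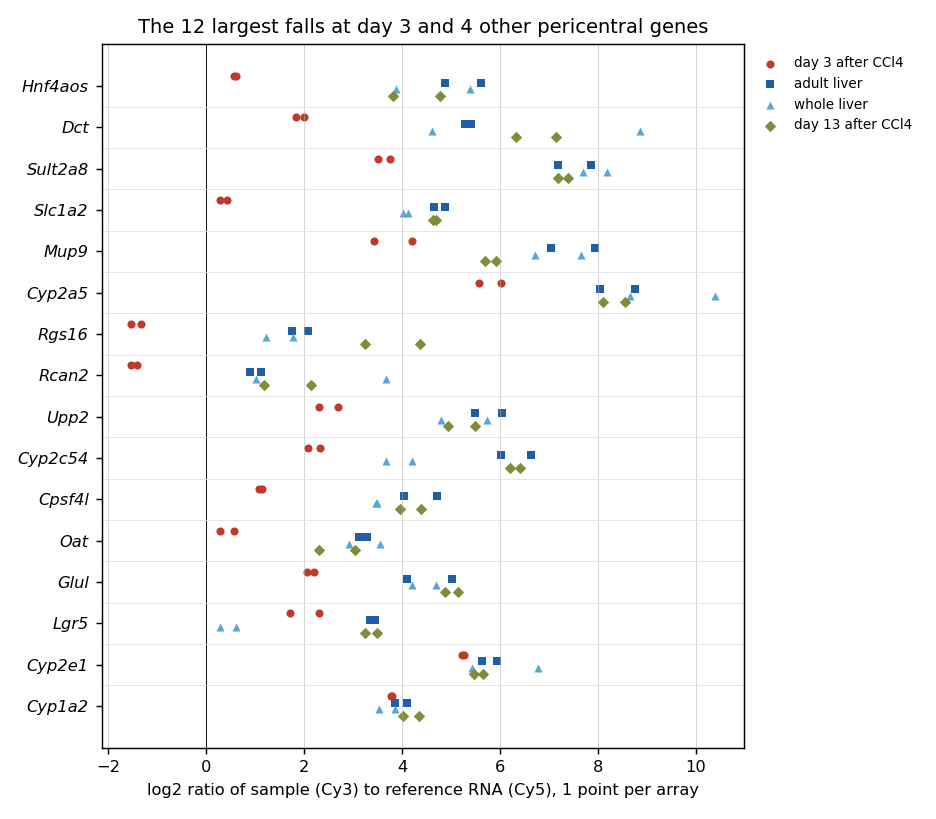
Log2 ratio of sample to reference RNA (x axis) for the 12 genes with the largest falls and for Glul, Lgr5, Cyp2e1 and Cyp1a2, 1 point per array, with colours and shapes for day 3 (red circles), adult liver (dark blue squares), whole liver (light blue triangles) and day 13 (green diamonds). The 12 falls were chosen without overlap, so day 3 lies to the left of every undamaged array for them by choice, and it does so for Glul. The change of Slc1a2 against the average of both sets is -4.06. Cyp1a2 overlaps and Lgr5 lies between whole and adult liver.

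Some genes of pericentral hepatocytes fell. Of 27 tested, 9 were kept as lower and none as higher, against 0.937% of all genes kept as lower, and the median change was -0.80. The count was 5 without either of the day 3 arrays. The list's mean level was between 3.34 and 3.40 at day 3, 4.50 and 4.67 in adult liver and 4.14 and 4.80 in whole liver. At day 13 it was between 4.47 and 4.76, within the range of the undamaged arrays.

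Slc1a2, a glutamate transporter of the last hepatocytes around the central vein, changed most. Its probe (chromosome 2, 102617706 to 102617765) stood at 0.28 and 0.43 at day 3, above background on 1 of those 2 arrays, and at 4.65 and 4.88 in adult liver and 4.02 and 4.11 in whole liver. The undamaged arrays lay together more than 3 units above day 3. The change was -4.41 ± 0.28 against adult liver (adjusted p = 5.6e-09) and -3.71 ± 0.28 against whole liver (adjusted p = 5.5e-08). At day 13 the levels were 4.69 and 4.63, as in adult liver, and day 3 was lower by 4.31 (adjusted p = 6.1e-09).

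Glul, glutamine synthetase, and Oat, ornithine aminotransferase, act in the same cells to trap ammonia as glutamine. Glul stood at 2.20 and 2.05 at day 3 and at 4.10 and 5.01 in adult liver and 4.69 and 4.21 in whole liver. Oat stood at 0.57 and 0.28 at day 3 and at 3.12 and 3.28 in adult liver and 2.92 and 3.55 in whole liver. Both genes were lower on the day 3 arrays than on any undamaged array. The change of Glul was -2.43 ± 0.39 against adult liver (adjusted p = 0.00023) and -2.32 ± 0.39 against whole liver (adjusted p = 0.00044) and that of Oat -2.78 ± 0.26 against adult liver (adjusted p = 5.5e-07) and -2.81 ± 0.26 against whole liver (adjusted p = 8.8e-07).

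Several pericentral P450 enzymes fell. Cyp2c54, of the epoxygenase family 2C, stood at 2.07 and 2.32 at day 3 and at 6.02 and 6.64 in adult liver and 4.21 and 3.67 in whole liver. All undamaged arrays lay higher, adult liver most, and the change was -4.13 ± 0.23 against adult liver (adjusted p = 1.8e-09) and -1.74 ± 0.23 against whole liver (adjusted p = 3.9e-05). Cyp2a5, a coumarin hydroxylase, stood at 6.02 and 5.57 at day 3 and at 8.04 and 8.76 in adult liver and 8.66 and 10.39 in whole liver, and changed by -2.61 ± 0.72 and -3.73 ± 0.72, a call lost with Agilent's log ratio, with quantile scaling, without either day 3 array or without adult liver replicate 2. Cyp2c37, Cyp2c38, Lhpp and Aldh1a1 were the other members kept as lower.

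Not every pericentral gene was kept as lower. Cyp2e1, the main enzyme that activates CCl4, stood at 5.23 and 5.27 at day 3 and at 5.63 and 5.93 in adult liver and 5.42 and 6.78 in whole liver. Its day 3 levels were below all undamaged levels, by little, and it was not called (adjusted p = 0.66 and 0.37). With Cy3 alone, Cyp2e1 was kept as lower and changed by -4.24 against the average of both sets, in place of -0.69. In that setting the median of all genes was -0.1 against adult liver and -0.669 against whole liver. The cause of the different result for Cyp2e1 was not tested. Cyp1a2, an arylamine-oxidising P450, stood at 3.80 and 3.78 at day 3 and at 3.86 and 4.09 in adult liver and 3.85 and 3.53 in whole liver, with overlap. Axin2, a feedback gene of Wnt signalling, was above background at day 3 (0.37 and 0.11) and on no undamaged array, but its change was small and not called (adjusted p = 0.38 and 0.2).

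Of 35 other P450 genes, 4 were kept as lower and 2 as higher, against 0.937% and 2.73% of all genes. Cyp4a10, a fatty acid omega-hydroxylase, stood at 4.25 and 3.95 at day 3 and 6.70 and 6.76 in adult liver and 5.54 and 7.29 in whole liver, and fell by 2.63 and 2.31 on the log2 scale against adult and whole liver. Cyp2c39 fell by 2.31 and 2.33 (-1.05 against the average of both sets with Agilent's log ratio, where the call was lost), and Cyp26a1, which degrades retinoic acid, by 3.05 and 1.28. Cyp4a12b changed by -2.83 ± 0.34 and -1.02 ± 0.34, a call lost with slide or scan day as a random block. Single arrays decided some of these calls: that of Cyp4a10 was lost without day 3 replicate 2 or whole liver replicate 2, that of Cyp26a1 without day 3 replicate 1 or whole liver replicate 1, and that of Cyp4a12b without any array but whole liver replicate 2. The list's count of 4 became 2 without either of the day 3 arrays.

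The higher P450 genes were Cyp1a1, an inducible target of the aryl hydrocarbon receptor, and Cyp39a1, an oxysterol hydroxylase. Cyp1a1 stood at 2.62 and 2.94 at day 3 and at 0.33 and 0.33 in adult liver and 0.10 and -0.01 in whole liver, above background on 1 adult liver array. It changed by 2.73 ± 0.16 against whole liver (adjusted p = 5.8e-09) and 2.45 ± 0.16 against adult liver. The call was lost with Cy3 alone, where the change against the average of both sets was 1.20. Cyp39a1 rose by 1.53 ± 0.18 and 1.46 ± 0.18 and was still at 1.68 and 1.93 at day 13, where day 3 was higher by 0.34 ± 0.18 (adjusted p = 0.35).

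The largest fall, by the same ranking with signal on all undamaged arrays, was that of Hnf4aos, an antisense RNA of the hepatocyte factor Hnf4a. It stood at 0.56 and 0.60 at day 3 and at 4.88 and 5.61 in adult liver and 3.88 and 5.38 in whole liver. Every undamaged array lay more than 3 units higher, and the change was -4.66 ± 0.41 against adult liver (adjusted p = 2.2e-07) and -4.05 ± 0.41 against whole liver (adjusted p = 2e-06). Hnf4a itself stood at 5.49 and 5.32 at day 3 and at 5.64 and 5.91 in adult liver and 4.05 and 4.45 in whole liver. It changed by -0.38 ± 0.22 against adult liver, which was not called, and by 1.16 ± 0.22 against whole liver (adjusted p = 0.0012), so its day 3 levels lay between the 2 sets. Of 20 transcription factors of hepatocytes, limma kept 0, and 1 was lower against both sets at an unadjusted p under 0.05. By that measure 893 of all 21032 genes were lower. Cebpa changed by -1.05 and 0.99 against adult and whole liver.

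Sult2a8, a sulfotransferase of bile acids, stood at 3.74 and 3.51 at day 3 and at 7.18 and 7.86 in adult liver and 7.69 and 8.19 in whole liver. Mup9, a major urinary protein gene with near-identical copies, stood at 4.21 and 3.42 at day 3 and at 7.04 and 7.93 in adult liver and 6.72 and 7.65 in whole liver. Neither gene's groups overlapped, a condition of their ranking. Sult2a8 changed by -3.89 ± 0.46 against adult liver (adjusted p = 7.1e-06) and -4.31 ± 0.46 against whole liver (adjusted p = 3.7e-06) and Mup9 by -3.67 ± 0.36 and -3.37 ± 0.36. Sult2a8 was the single kept gene among 34 of conjugation (phase II) enzymes. That count is near the background of 2.73% of all genes kept as higher and 0.937% as lower.

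Rgs16, which turns off G protein signals, stood at -1.34 and -1.54 at day 3 and at 1.74 and 2.08 in adult liver and 1.77 and 1.22 in whole liver, and was at 3.23 and 4.37 at day 13, above both. It fell by 3.35 and 2.93 against adult and whole liver. Upp2, a uridine phosphorylase, fell by 3.27 and 2.77, a call lost with Agilent's log ratio, where the change against the average of both sets was -0.93. Cpsf4l, a relative of an mRNA cleavage factor subunit, fell by 3.28 and 2.38. Rcan2, an inhibitor of calcineurin, fell by 2.47 and 3.81, a call lost without day 3 replicate 1 or adult liver replicate 2 or with the 3 groups fitted alone.

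Dct, the melanin pathway enzyme dopachrome tautomerase, stood at 2.00 and 1.82 at day 3 and at 5.41 and 5.28 in adult liver and 4.61 and 8.86 in whole liver. The day 3 arrays were below the rest, but whole liver replicate 2 stood far above its partner. Its change was -3.44 ± 1.02 against adult liver (adjusted p = 0.027) and -4.83 ± 1.02 against whole liver (adjusted p = 0.0031), and the call was lost on leaving out any of the 6 arrays except whole liver replicate 1.

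Periportal genes gave 1 kept member in each direction of 23 tested, with a median of -0.37. These counts are near the background of 2.73% of all genes kept as higher and 0.937% as lower. Cdh1, E-cadherin, the adhesion protein of epithelia, stood at 5.88 and 5.69 at day 3 and at 3.28 and 4.12 in adult liver and 2.01 and 0.002 in whole liver, above every undamaged array, though the undamaged sets differed between themselves by 2.69 ± 0.57. It changed by 2.08 ± 0.57 against adult liver (adjusted p = 0.016) and 4.78 ± 0.57 against whole liver (adjusted p = 1.1e-05), and the call was lost with Agilent's log ratio, with quantile scaling, with the 3 groups fitted alone, without either day 3 array or without adult liver replicate 1. Asl, argininosuccinate lyase of the urea cycle, fell by 1.56 and 1.27, a call lost with Cy3 alone, without either day 3 array or without whole liver replicate 2. Cps1, the entry enzyme of that cycle, stood at 10.14 and 9.89 at day 3 and at 9.72 and 9.96 in adult liver and 8.56 and 9.96 in whole liver and was not called.

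Genes of bile acid handling gave 1 kept member in each direction of 22. Counts this small are near the background of 2.73% of all genes kept as higher and 0.937% as lower. Against adult liver alone 4 were lower, beside 3.44% of all genes, and against whole liver 2, beside 2.65%. At an unadjusted p under 0.05 against both sets in the same direction, 4 were lower and 2 higher. Over all 21032 genes that measure gave 893 lower and 1738 higher. Slc51b, a subunit of the transporter that exports bile acids to blood, stood at 3.95 and 3.76 at day 3 and at 0.78 and 1.37 in adult liver and 0.19 and 1.53 in whole liver. The day 3 arrays lay more than 2 units above all undamaged arrays, and the gene rose by 2.78 ± 0.29 and 3.00 ± 0.29, a call lost with Cy3 alone and with Agilent's log ratio. Slco1a1, an uptake transporter higher in male liver, fell by 2.76 and 1.74, a call lost without either day 3 array or either whole liver array. With slide or scan day as a random block that call was also lost. Cyp7a1, the rate-limiting enzyme of bile acid synthesis, stood at 4.99 and 5.89 at day 3 and at 6.51 and 6.05 in adult liver and 5.76 and 7.74 in whole liver, with overlap.

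Of 33 secreted proteins of hepatocytes tested, limma kept 0, against 2.73% of all genes kept higher and 0.937% kept lower. Against whole liver alone 4 were lower, against 2.65% of all genes, and against adult liver none. Of the 33, 0 had an unadjusted p under 0.05 against both sets in the same direction, beside 1738 higher and 893 lower of 21032 genes. The list's median change was -0.02 against adult liver and -0.92 against whole liver. Alb, serum albumin, stood at 4.07 and 4.33 at day 3 and at 3.85 and 3.96 in adult liver and 4.27 and 6.17 in whole liver, with the day 3 arrays between adult liver and the upper whole liver array. The list's mean level was between 5.80 and 5.87 at day 3, 5.86 and 5.91 in adult liver and 6.14 and 6.99 in whole liver.

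Other lists gave fewer kept genes, beside 2.73% of all genes kept as higher and 0.937% as lower. Of 30 genes of lipid and sterol metabolism, 2 were lower, among them Me1, malic enzyme (-2.25 ± 0.40 and -1.64 ± 0.40). Its call was lost without day 3 replicate 2 or with all probes averaged. At an unadjusted p under 0.05 against both sets in the same direction, 8 of the 30 were lower and 0 higher. Over all 21032 genes that measure gave 893 lower and 1738 higher. Of 15 circadian genes, 3 were lower. Tef, a clock output factor, stood at -0.50 and -0.41 at day 3 and at 1.61 and 1.62 in adult liver and 1.28 and 1.29 in whole liver, without overlap, and fell by 2.07 and 1.74, a call lost with all probes averaged. Usp2 and Per2 changed by -1.81 and -1.42 against the average of both sets. The call of Usp2 was lost in 12 of 20 settings. Among them were scan day as a random block and leaving out any array but whole liver replicate 2. That of Per2 was lost in 8, among them leaving out either day 3 array. Without either day 3 array the circadian count was 1, and the time of day of sampling is not in the labels.

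Of 22 chemokine genes, 3 were higher, against 2.73% of all genes kept as higher and 0.937% as lower. Pf4, a platelet chemokine, rose by 2.76 ± 0.30 and 1.85 ± 0.30. Cxcl14 rose by 1.44 ± 0.47 and 2.93 ± 0.47 and Ccl9 by 1.22 ± 0.35 and 1.42 ± 0.35. Leaving out any 1 of the 6 arrays ended the call of Cxcl14, and leaving out any but adult liver replicate 1 and whole liver replicate 2 that of Ccl9. With slide as a random block the call of Cxcl14 was lost, and with scan day those of Cxcl14 and Ccl9. Of 13 targets of Nrf2 and metals, G6pdx, of the pentose phosphate pathway, was higher (1.19 ± 0.36 and 1.33 ± 0.36), and that call was lost on leaving out any array but whole liver replicate 2. A count of 1 is near the background, though at an unadjusted p under 0.05 against both sets 4 of the 13 were higher and 0 lower. Nqo1 and Mt1, the usual readouts of Nrf2 and of metals, were not called. Of 14 immediate early genes limma kept 0, and 1 was higher against both sets at an unadjusted p under 0.05. Of 22 genes that differ between male and female liver, Slco1a1 alone was kept. Of these 22, 6 were lower than whole liver and 2 lower than adult liver, beside 2.65 and 3.44% of all genes. Their median change was -1.20 against whole liver and -0.47 against adult liver, and 16 were negative against both. Of 9 genes of blood cells, Pf4 and Car1, carbonic anhydrase 1 (-1.33 against the average of both sets), were kept. Of 10 genes of pancreas and 11 of fat and muscle, limma kept 0 and 0 had an unadjusted p under 0.05 against both sets in the same direction. Over all 21032 genes the unadjusted measure gave 1738 higher and 893 lower.

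**Figure D4:**
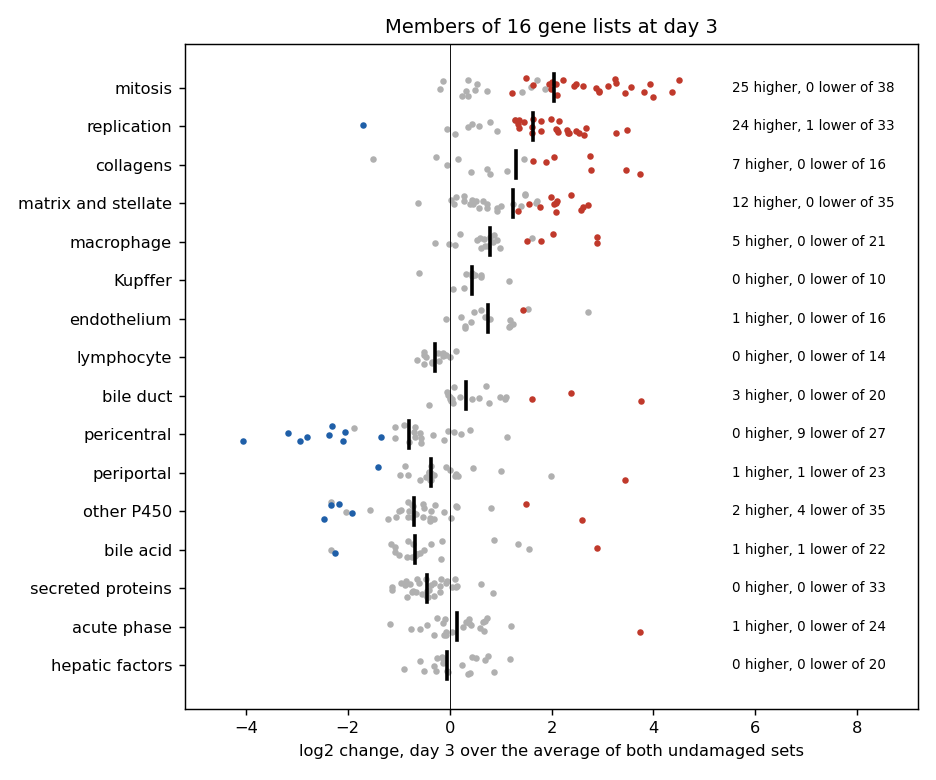
Log2 change at day 3 against the average of both undamaged sets (x axis) for the members of 16 gene lists, 1 point per gene, red where kept as higher, blue where kept as lower and grey otherwise, with a black bar at each list's median. Mitosis (25 of 38) and replication (24 of 33) have the most red points, pericentral genes the most blue (9 of 27), and the Kupffer, lymphocyte, secreted protein and hepatic factor lists have none of either.

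For 14 genes the direction depended on the undamaged set: 12 were lower than adult liver and higher than whole liver at day 3, and 2 the reverse. Lgr5, a receptor for R-spondins that marks pericentral hepatocytes and damage-induced progenitors, was among them. It stood at 2.30 and 1.71 at day 3, at 3.44 and 3.35 in adult liver and 0.60 and 0.28 in whole liver, and at 3.24 and 3.48 at day 13. The day 3 arrays lay between the sets, below adult liver and above whole liver, where 1 of 2 arrays was above background. The change was -1.39 ± 0.37 against adult liver (adjusted p = 0.013) and 1.57 ± 0.37 against whole liver (adjusted p = 0.0063).

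The undamaged sets differed from each other in 1374 genes, 881 higher and 493 lower in adult liver. Of 36 genes of the Wnt pathway, 1 was kept, near the 2.73% of all genes kept as higher. That member was Frzb, a secreted Wnt inhibitor. It stood at 3.59 and 3.31 at day 3 and at 0.67 and 0.97 in adult liver and 0.23 and 0.07 in whole liver, above background on 1 of those 4 arrays. Frzb changed by 3.30 ± 0.47 against whole liver (adjusted p = 7.2e-05) and 2.63 ± 0.47 against adult liver (adjusted p = 0.00059), a call lost with Agilent's log ratio. With Cy3 alone its change against the average of both sets was 1.74. Rspo3, an R-spondin of the central vein, was above background on both day 3 arrays and on no undamaged array, at levels of 0.50 and 0.61 against 0.05 and 0.33 in adult liver and -0.09 and 0.10 in whole liver, and was not called.

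**Figure D5:**
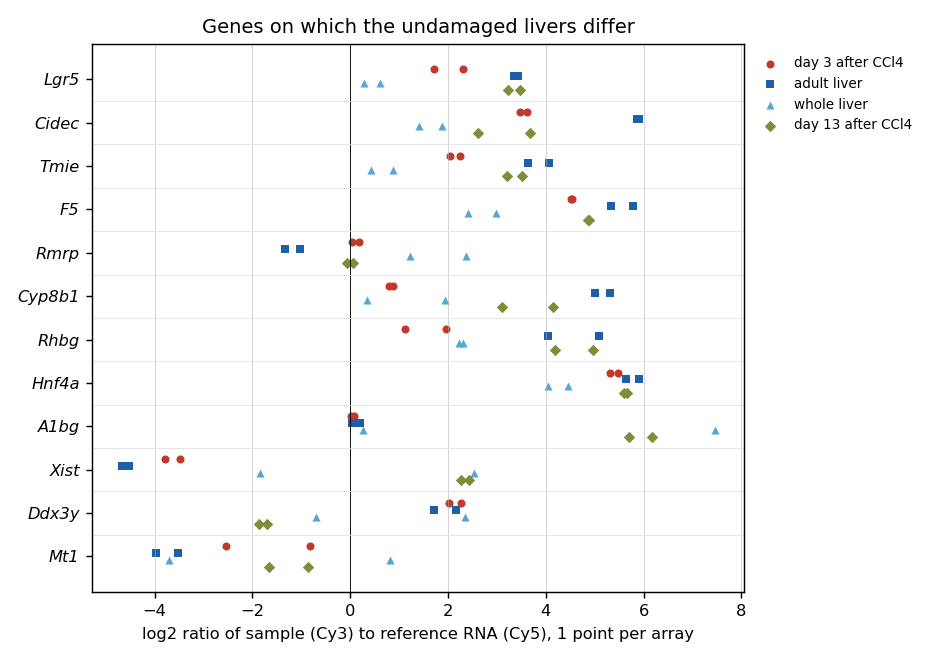
Log2 ratio of sample to reference RNA (x axis) for 12 genes on which the undamaged livers differ, 1 point per array, for day 3 (red circles), adult liver (dark blue squares), whole liver (light blue triangles) and day 13 (green diamonds). For Lgr5, Cidec, Tmie, F5 and Rmrp the day 3 points lie between adult and whole liver, and for A1bg and Xist whole liver replicate 2 lies beside the day 13 arrays.

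Day 3 exceeded day 13 in 749 genes (3.56%) and was below it in 449 (2.13%). Of the mitosis list 31 of 38 were higher at day 3 than at day 13, of replication 27 of 33, of the collagens 7 of 16, of matrix and stellate genes 10 of 35 and of macrophage genes 4 of 21. Of the pericentral genes 12 of 27 were lower at day 3. These comparisons share the day 3 arrays with those above, and the day 13 arrays differ from day 3 in Ddx3y and Xist, so sex and time cannot be told apart in them.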

How the data were processed

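The scanner files as deposited hold, per the file headers, median spot and background intensities of both channels and a log10 ratio of Cy5 over Cy3 from Agilent Feature Extraction 10.5.1.1 (8.5.1.1 in the submitters' processing notes). The series matrix, also deposited, holds the same log10 ratio and differed from the scanner values by 0. Its medians are 0 on the 8 CCl4 and undamaged liver arrays and between 0 and 0.102 over all 28, and it was used as an alternative only. No coordinate beyond the files' own (mm9) was used for probes.

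From the intensities, log2 of Cy3 over Cy5 was computed in R 4.3.3 with limma 3.58.1: normexp with an offset of 50, loess within arrays with 1639 control spots of 45018 at weight 0, outlier spots (0.495%) left out, and spots averaged to 41174 probes. Tested probes (31064) had a Cy3 signal well above background on 2 or more of the 28 arrays, and the brightest probe stood for each of 21032 genes. RefSeq names matched 16783 genes, and 4249 keep the name in the files. A model with a mean for each of 13 groups was fitted to all 28 arrays (lmFit, eBayes, 15 residual degrees of freedom), and p-values were adjusted by Benjamini-Hochberg within each comparison. Two-sided tests were used. Precision is limited by the 2 arrays of each group.

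Named genes are the 12 largest rises and falls among kept genes with a RefSeq symbol, no overlap between arrays and signal above background on the higher side, up to 4 kept members of a list in each direction, a set of key genes, and 5 genes of opposite direction. The genes, the 30 lists and the rule were chosen with earlier results of these data known. On simulated data with 200 of 21032 genes changed, 16.2% of changes of 1 log2 unit, 93% of 2 and 96.8% of 3 were recovered as kept, with 1 false call. The simulated liver groups shared a common level and had independent noise. Differences between the undamaged sets, slides and scan days were not simulated, so these rates do not cover them. Alternatives were other normalizations, filters, probe rules, call rules and fits, slide or scan day as a random block (correlations 0.11 and 0.199), a replicate block, and each array left out. Some genes are not reported here.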

Additional observations from a re-analysis of the deposited data

Results flagged for a closer look

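For 5 genes the change at day 3 went in opposite directions against adult liver and whole liver, and the sets differed from each other. The genes were chosen for those opposite calls, so the difference (adult minus whole liver) is given as a description, with no test. Cidec, a lipid droplet protein, differed by 4.25 ± 0.47, with day 3 at -2.34 against adult and 1.91 against whole liver. Tmie differed by 3.20, with changes of -1.71 and 1.49. The RNase MRP RNA Rmrp differed by -2.965, with changes of 1.28 and -1.68. Lgr5 differed by 2.955, with changes of -1.39 and 1.57. The coagulation factor F5 differed by 2.86, with changes of -1.03 and 1.83. For each of these 5 genes the day 3 levels lay between those of the 2 sets on all arrays. They are the 5 largest of the 14 such genes by the difference between the sets.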

How the results depend on the processing

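Each comparison rests on 2 arrays a group, or 1 where an outlier spot was removed, and probes near background limit what can be said of dim genes. Of the 771 kept genes, 480 stayed kept with Agilent's own log ratio, 448 with Cy3 alone, 497 with quantile scaling, 720 without background subtraction, 733 without the filter on dim probes, 570 with all probes of a gene averaged, 742 with slide and 687 with scan day as a random block, 768 with array weights and 700 with the 3 groups fitted alone. Leaving out single arrays kept between 483 (day 3 replicate 1) and 673 (adult liver replicate 2). Of the 103 named genes and values tested this way, 18 lost their call with Agilent's log ratio. The 103 include genes that were not kept, such as Lgr5, Cps1 and Alb, which had no such call to lose. The share lost among kept genes is therefore larger than 18 of 103. The cause of these differences was not tested. Agilent's log ratio gave 355 genes lower than adult liver. Cy3 alone gave 310 kept lower and 6802 lower than whole liver, beside a shift of the median of all genes by -0.669. Quantile scaling gave 657 higher than adult liver and 731 higher than whole liver. Testing against the average of both sets gave 1040 kept higher and 419 kept lower. Without a fold minimum, 980 were kept higher and 434 lower, 1863 were higher and 1334 lower than adult liver, and 2183 higher and 1197 lower than whole liver. Leaving out 1 array gave from 406 to 554 kept higher, 115 to 199 kept lower, 758 to 1127 higher and 449 to 742 lower than adult liver, and 835 to 1329 higher and 286 to 590 lower than whole liver. Among called values, directions turned for 4: F5 against adult liver was 0.094 with Agilent's log ratio, and with Cy3 alone Tmie was -0.15 and Lgr5 -0.36 against whole liver and Rmrp -0.78 against adult liver. Changes against the average of both sets that were not called, such as those of Hnf4a, Cps1, Axin2 and Clec4f, also changed sign between settings. That of Hnf4a, which was called against whole liver alone, ran from -1.31 with Agilent's log ratio to 0.53 without background subtraction.

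The replicate numbers are not known to pair arrays, and replicate differences correlated by 0.006, -0.032 and 0.033 between groups. With the replicate number as a block, the replicate block, 1115 genes were higher than adult liver and 199 were kept lower, and 760 of the 771 genes stayed kept.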

Other observations

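Some kept genes outside the lists, chosen after their values were seen, are given as single genes. Lpl, lipoprotein lipase, stood at 2.15 and 1.82 at day 3 and at -2.35 and -1.04 in adult liver and -1.62 and -1.11 in whole liver and changed by 3.68 ± 0.52 against adult liver (adjusted p = 6e-05) and 3.35 ± 0.52 against whole liver (adjusted p = 0.00022). Golm1, a Golgi membrane protein, changed by 3.24 ± 0.19 and 3.67 ± 0.19 against adult and whole liver, Nid1, nidogen of basement membranes, by 3.37 ± 0.56 and 3.21 ± 0.56, and Serpinh1, the collagen chaperone, by 2.57 ± 0.27 and 2.84 ± 0.27. Tnfrsf12a, the receptor of the cytokine TWEAK, changed by 3.10 ± 0.34 and 2.99 ± 0.42, and the keratin Krt18 by 1.91 ± 0.34 and 2.69 ± 0.34. Each was higher against both sets. Tnfrsf12a lacked a value on whole liver replicate 1, so that against whole liver it rests on 1 array. Without whole liver replicate 2 no whole liver value is left, so its call could not be made.

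Other genes chosen in this way were lower against both sets. Prodh, proline dehydrogenase, stood at 2.68 and 2.23 at day 3 and at 5.26 and 5.05 in adult liver and 4.82 and 5.39 in whole liver and changed by -2.70 ± 0.31 against adult liver (adjusted p = 4.5e-06) and -2.65 ± 0.31 against whole liver (adjusted p = 8.4e-06). Csad, of taurine synthesis, changed by -3.0 ± 0.28 and -2.25 ± 0.28, Aldh3a2, a fatty aldehyde dehydrogenase, by -2.61 ± 0.18 and -2.66 ± 0.18, and the peroxisomal enzyme Cat, catalase, by -2.22 ± 0.39 and -1.53 ± 0.39. Ghr, the growth hormone receptor, changed by -1.53 ± 0.21 and -2.03 ± 0.21, and the lipid-sensing receptor Pparg by -2.43 ± 0.33 and -1.97 ± 0.33. The call of Cat was lost without either of the day 3 arrays, without whole liver replicate 1 or with Cy3 alone.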
